A study of Mus musculus with 6 samples.

Results

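Cytotoxic effectors and their transcription factors comprised 7 genes, Gzma, Gzmb, Prf1, Eomes, Tbx21, Runx3 and Ifng, among the 561 genes of a NanoString mouse immunology panel. They were found by matching the RefSeq transcript of each panel row to the gene symbol, and each matched 1 row. All 7 reached a mean of at least 20 over the 6 samples and so were among the 457 genes tested. The samples were splenocytes, a mixture of all spleen cells, and came from female NZB/WF1 mice, which develop an autoimmune disease that resembles lupus. All mice carried an implant from an age of 6 to 7 weeks, and splenocytes were collected after 9 weeks of treatment. The implant held 17alpha-ethinyl estradiol (EE, replicates 11 and 14), held 17-beta estradiol (E2, replicates 1 and 2) or was empty (placebo, replicates 22 and 26), with 2 samples per group. EE carries an ethynyl group on the 17-alpha carbon of estradiol. Doses of the implants are not stated in the sources used here. Nothing in the labels says that the samples of a group came from separate mice, so the p-values cover only the spread between samples, which may be technical.

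Cytotoxic lymphocytes, chiefly CD8 T cells and natural killer (NK) cells, kill a target cell by releasing granules. Perforin, encoded by Prf1, lets the granule proteases enter the target, and the granzymes encoded by Gzma and Gzmb cleave proteins inside it. The T-box factors T-bet (Tbx21) and Eomes and the Runt factor Runx3 switch on effector genes in these cells, and interferon gamma (Ifng) is the main cytokine they secrete. Type 1 helper T cells also use T-bet and make interferon gamma. In the spleen these cells are a minority among B cells, helper T cells and myeloid cells.

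The start regions of 4 effector genes are shown because these genes span the range of the response, with Gzma differing most from placebo and Gzmb and Ifng least. Each is the RefSeq window from 250 bases before to 50 bases after the gene start in build GRCm38.p6, read 5′ to 3′ on the strand of the gene. Capitals mark the T-box core AGGTGT, the Runx core TGTGGT and the STAT spacing motif TTCNNNGAA on either strand.
Gzma, chr13:113100932-113101231, minus strand: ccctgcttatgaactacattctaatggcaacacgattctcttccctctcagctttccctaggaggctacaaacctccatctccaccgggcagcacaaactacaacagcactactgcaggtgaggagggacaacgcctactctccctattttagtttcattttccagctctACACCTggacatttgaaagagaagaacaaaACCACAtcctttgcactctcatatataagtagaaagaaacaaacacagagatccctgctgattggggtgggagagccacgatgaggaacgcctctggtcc
Prf1, chr10:61297586-61297885, plus strand: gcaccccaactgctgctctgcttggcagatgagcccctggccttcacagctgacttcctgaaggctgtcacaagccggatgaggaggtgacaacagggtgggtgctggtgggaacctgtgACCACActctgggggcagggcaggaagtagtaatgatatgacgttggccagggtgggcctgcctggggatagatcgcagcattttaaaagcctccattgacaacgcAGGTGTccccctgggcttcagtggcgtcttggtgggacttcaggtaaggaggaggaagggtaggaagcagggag
Gzmb, chr14:56262285-56262584, minus strand: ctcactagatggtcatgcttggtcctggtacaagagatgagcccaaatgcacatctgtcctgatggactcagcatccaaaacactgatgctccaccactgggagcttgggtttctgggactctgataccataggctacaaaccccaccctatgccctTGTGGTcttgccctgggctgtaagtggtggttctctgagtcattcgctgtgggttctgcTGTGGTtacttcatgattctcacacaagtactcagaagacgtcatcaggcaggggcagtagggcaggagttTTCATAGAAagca
Ifng, chr10:118440796-118441095, plus strand: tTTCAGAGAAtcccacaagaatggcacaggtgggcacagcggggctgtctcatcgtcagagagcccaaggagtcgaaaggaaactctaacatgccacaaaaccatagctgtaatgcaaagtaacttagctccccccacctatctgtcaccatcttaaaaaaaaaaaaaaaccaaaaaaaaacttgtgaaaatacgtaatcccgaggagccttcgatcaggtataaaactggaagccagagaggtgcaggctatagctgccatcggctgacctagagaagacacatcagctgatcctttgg
The Gzma window held a T-box core that began 80 bases before the start and a Runx core that began 50 bases before it. The Prf1 window also held both, at 24 and 130 bases before the start. The Gzmb window held a Runx core at 93 and another at 34 bases before the start, and a STAT motif at base 38 after it. In the Ifng window the STAT motif at 249 bases before the start was the only match. Runx3 has 2 start windows in the same table, of which 1 held a pair of Runx cores, and the windows of Eomes and Tbx21 held 0 of the 3 motifs. The motifs did not overlap each other. They were chosen after these sequences were seen and are common. AGGTGT or its reverse complement occurred in 13.7% of 32851 windows of that length. On either strand, TGTGGT occurred in 16.8% and TTCNNNGAA in 8.3%. In the 513 windows of genes on the panel the shares were 13.5%, 20.1% and 12.5%. A match is a description of the letters and not a measured binding site.

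The deposited values are whole numbers per probe that appear to be barcode counts scaled and rounded before deposit. Gene totals were 646299 and 673384 in EE, 810223 and 771344 in E2, and 822812 and 863942 in placebo samples. A background level was set per sample at 2 SD above the mean of 8 negative-control probes, and ranged from 10.1 to 13.7. Gzma stood far above it in every sample, whereas the lowest values of Gzmb and Ifng were 1.09 and 1.38 times the highest background. Background is thus a large part of the low values of these 2 genes, and their differences are uncertain in size and may be understated. Markers of the labelled tissue were present, with all 7 B cell markers and all 13 T cell markers on the panel past the filter. Probes bind with different efficiency, so levels were compared between samples and never between genes.

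Every effector and factor had lower deposited values in both estrogen groups than in placebo. With limma on log2(value + 1), 7 of 7 were called lower in EE than in placebo, where 63.9% of all tested genes were called lower, and 7 of 7 were called lower in E2 than in placebo, where 59.5% were. All 7 lay below placebo without overlap in both estrogen groups, as did 70% of all tested genes in EE and 67.6% in E2. Most of the panel was thus lower on the deposited scale, and the counts of calls say little about these genes in particular. The median log2 difference of the 7 genes was -1.66 in EE, where the median of all tested genes was -0.695, and -1.46 in E2, where it was -0.559. Among the 7, 6 fell more than 2-fold in EE, as did 26.5% of all tested genes, and 6 in E2, as did 16.4%. Both contrasts share the placebo samples. In bulk RNA, fewer cells of a type and less RNA per cell cannot be told apart.

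**Figure D1:**
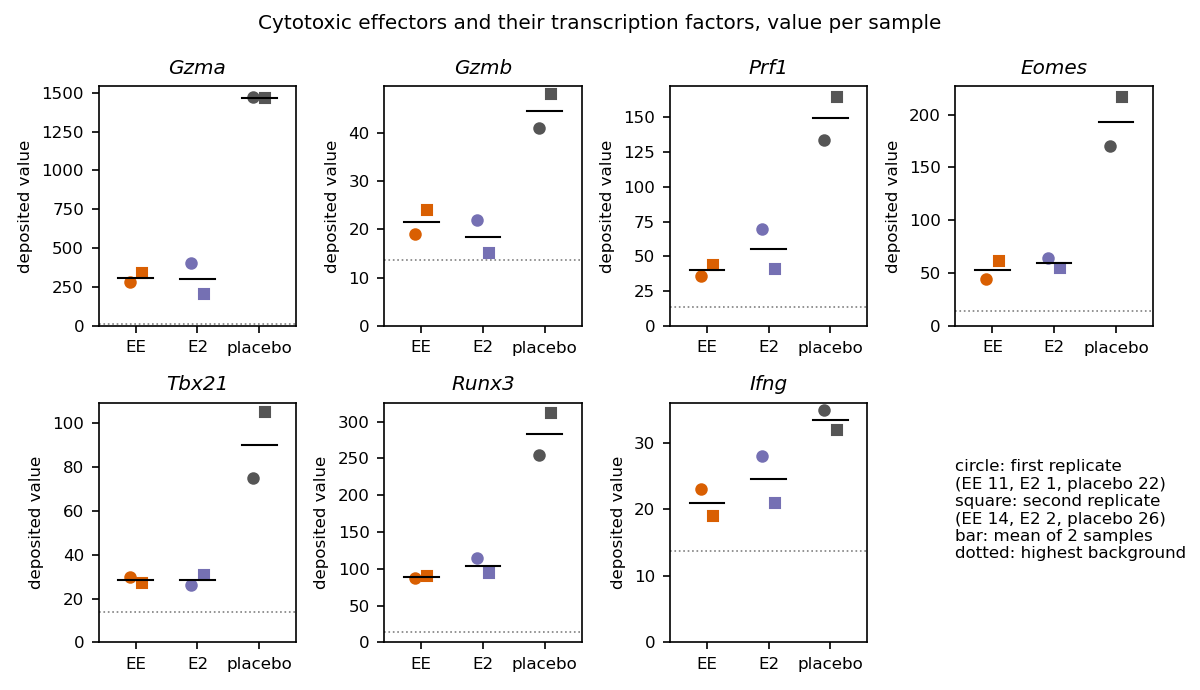
Deposited value of each gene (vertical axis, linear, from 0) in EE, E2 and placebo splenocytes; symbols are samples, bars are means of 2 samples and the dotted line is the highest background of 13.7. All placebo samples lie above all estrogen samples in each panel, and Gzmb and Ifng lie close to the dotted line.

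Gzma, the trypsin-like granzyme, had values of 280 and 342 in EE samples, 406 and 203 in E2 samples and 1470 and 1463 in placebo samples. The placebo samples were nearly equal and lay far above all estrogen samples, while the E2 samples differed about as 2 to 1. Its means were 311 ± 43.8 in EE, 304.5 ± 144 in E2 and 1466.5 ± 4.95 in placebo samples (SD, n = 2 each). The log2 difference was -2.24 ± 0.28 (SE) in EE against placebo (adjusted p = 0.00016 by limma with Benjamini-Hochberg adjustment). It was -2.35 ± 0.28 in E2 against placebo (adjusted p = 0.000232 by limma), a 5.09-fold decrease. Ordered from the largest decrease among the 457 tested genes, Gzma ranked 2 in EE and 1 in E2.

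Prf1, the gene of the pore-forming protein perforin, had 36 and 44 in EE samples, 70 and 41 in E2 samples and 134 and 165 in placebo samples. Placebo samples were again the highest, and EE replicate 11 was the lowest, with the other EE sample between the E2 samples. The log2 difference was -1.88 ± 0.24 in EE against placebo, which ranked 6 (adjusted p = 0.000199 by limma), and -1.45 ± 0.24 in E2 against placebo, which ranked 13 (0.000879). Gzmb, the granzyme that activates caspases in the target, had 19 and 24 in EE, 22 and 15 in E2 and 41 and 48 in placebo samples. It fell by 1.02 ± 0.21 on the log2 scale in EE (adjusted p = 0.00159 by limma) and by 1.24 ± 0.21 in E2 (0.00085). The EE and E2 values of Gzmb interleave just above the background.

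Among the transcription factors, Eomes, a T-box factor of NK cells and memory CD8 T cells, had 44 and 61 in EE, 64 and 55 in E2 and 170 and 217 in placebo samples. The estrogen groups overlap each other and both lie far below placebo. Eomes fell by 1.87 ± 0.20 in EE against placebo (adjusted p = 7.96e-05 by limma) and by 1.68 ± 0.20 in E2 against placebo (0.000231), both on the log2 scale. Tbx21, which encodes T-bet, the T-box factor of type 1 immunity, had 30 and 27 in EE, 26 and 31 in E2 and 75 and 105 in placebo samples. The EE and E2 samples were all close to 28.5, the mean of both groups, and far below placebo. The log2 differences were nearly equal, at -1.61 ± 0.19 in EE and -1.61 ± 0.19 in E2 against placebo. Runx3, the Runt factor of the CD8 lineage, had 87 and 90 in EE, 114 and 94 in E2 and 254 and 311 in placebo samples. The EE samples were the lowest and placebo the highest, with no overlap between any of the groups. Runx3 fell by 1.66 ± 0.17 in EE against placebo (adjusted p = 7.04e-05 by limma) and by 1.43 ± 0.17 in E2 against placebo (0.000226). The factors thus lay within a narrow range of decreases in each contrast, and their samples of 1 group were closer together than those of Gzma and Prf1 in the E2 group.

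Ifng, the macrophage-activating cytokine, differed least from placebo. Its values were 23 and 19 in EE, 28 and 21 in E2 and 35 and 32 in placebo samples. The samples of placebo were the highest, but by a small margin and near the background. The log2 difference was -0.65 ± 0.18 in EE (adjusted p = 0.00815 by limma) and -0.45 ± 0.18 in E2 (0.0464). The E2 contrast of Ifng lost its call without E2 replicate 2 (adjusted p = 0.272), placebo replicate 22 (0.153) or placebo replicate 26 (0.0798), and the EE contrast lost it without EE replicate 14 (0.0559).

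**Figure D2:**
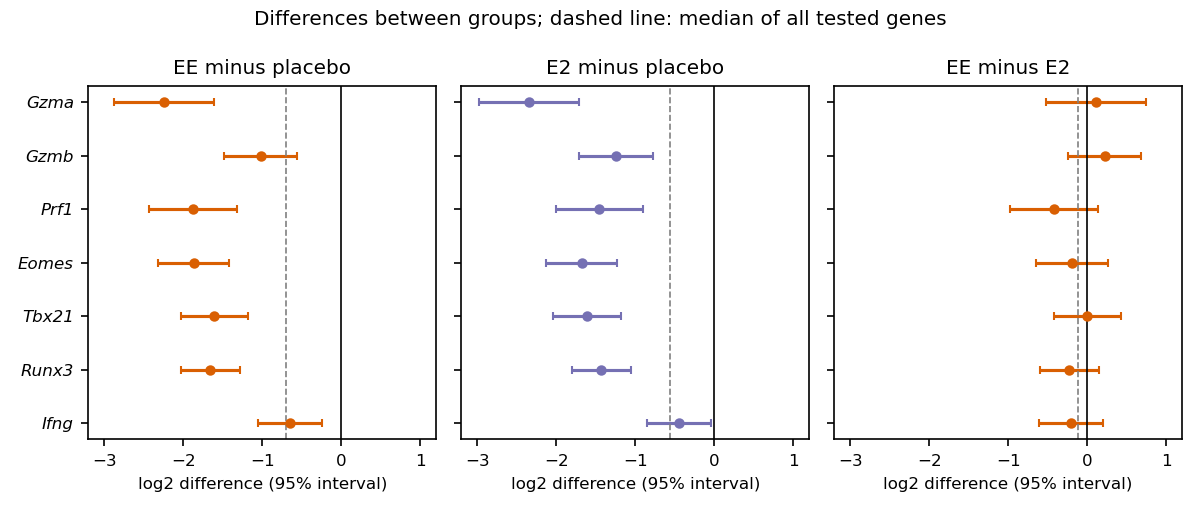
Log2 difference of each gene (horizontal axis; points, with 95% intervals from limma) for EE minus placebo, E2 minus placebo and EE minus E2; the dashed line is the median of all 457 tested genes. In the placebo contrasts 6 genes lie to the left of the dashed line and Ifng lies to the right of it, and in EE minus E2 all 7 intervals include 0.

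The size of these differences depended on how samples were scaled. The 3 neutrophil transcripts S100a8, S100a9 and Camp held 12.5% and 13.8% of the gene total in EE samples, 22.4% and 26.8% in E2 samples and 1.11% and 0.651% in placebo samples, and their part in the differences was not tested. On the deposited scale the geometric mean of the 12 named reference genes was nearly level, from 1117 to 1185. Single reference genes were not all level. In EE 3 were called higher and 2 lower, with differences from -0.5 to 0.745. In E2 2 were called higher and 1 lower, with differences from -0.584 to 1.02. Among all tested genes 15.5% were called higher and 63.9% lower in EE, and 12.5% and 59.5% in E2. Scaling on the trimmed mean of all gene ratios moved the median log2 difference of all genes by 0.659 in EE and by 0.545 in E2 against placebo, and scaling on positive controls by -0.328 and -0.093. With the trimmed mean 51.6% of the genes called in EE and 55.9% of those called in E2 were higher than in placebo, whereas on the deposited scale 71 genes were higher and 292 lower in EE, and 57 higher and 272 lower in E2. Gzma, Prf1, Eomes, Tbx21 and Runx3 were called lower in both placebo contrasts under each of the 7 scalings run, including the deposited one. The difference of Gzma ranged from -2.57 to -1.55 in EE and from -2.44 to -1.78 in E2. That of Eomes ranged from -2.19 to -1.19 and from -1.77 to -1.12. Gzmb was called lower under 7 of 7 scalings in E2 but under 4 of 7 in EE, where the trimmed mean left -0.38 (adjusted p = 0.0952 by limma). Ifng was called lower under 3 of 7 scalings in each contrast. A scaling shifts all genes of a sample alike on the log2 scale, apart from the added 1. The distance of a gene from the panel median is therefore nearly the same under each scaling. Ifng lay 0.017 to 0.054 above that median in EE and 0.093 to 0.113 above it in E2. The sign of Ifng turned in E2 with the trimmed mean (0.079) and in both contrasts with the median of ratios (0.01 in EE and 0.098 in E2).

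**Figure D3:**
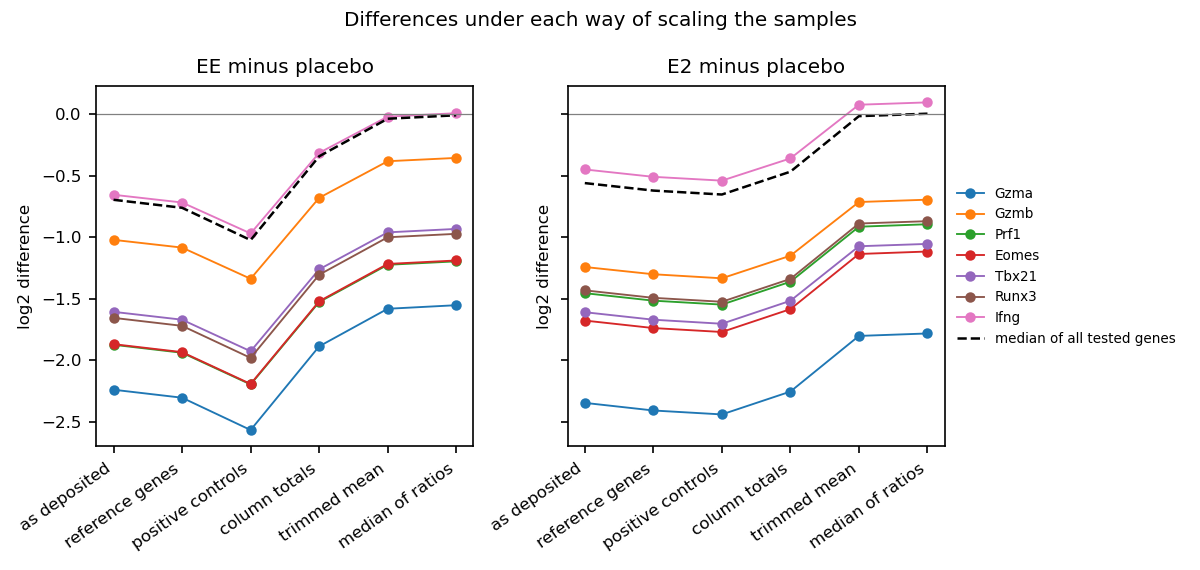
Log2 difference of each gene (vertical axis) for EE minus placebo and E2 minus placebo under 6 of the ways to scale samples (horizontal axis, categories; lines only join points of 1 gene); the dashed line is the median of all tested genes. A scaling moves all genes by nearly the same amount, so their order is the same at each, with Gzma lowest and Ifng close to the dashed line.

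The lymphocyte markers of the panel were lower in the estrogen groups as well. The summed value of 13 T cell markers was 8114 and 9228 in EE, 12158 and 10151 in E2 and 22264 and 25746 in placebo samples, and 13 of 13 were called lower in each placebo contrast. Among all tested genes 63.9% were called lower in EE and 59.5% in E2. The summed value of the CD8 markers Cd8a and Cd8b1 was 335 and 450 in EE, 539 and 455 in E2 and 1064 and 1041 in placebo samples. That of 4 NK cell markers (Klrk1, Klrd1, Klrc1 and Cd244a) was 796 and 901 in EE, 1103 and 817 in E2 and 2063 and 2145 in placebo samples. Of these, 3 were called lower in each contrast, and Cd244a was level at 40 and 55 in EE, 51 and 57 in E2 and 53 and 51 in placebo samples. In the opposite direction, 9 neutrophil markers summed to 82348 and 94207 in EE, 183889 and 209633 in E2 and 9806 and 6078 in placebo samples. A sum is carried by the probes with the highest values, here mostly S100a8, S100a9 and Camp. Of the 9, 7 were called higher in EE, where the lowest difference was -0.309, and 9 in E2. Among all tested genes 15.5% and 12.5% were called higher. For 8 erythroid, megakaryocyte and platelet markers the sums were 21322 and 20435 in EE, 16023 and 16260 in E2 and 3239 and 2503 in placebo samples. Monocyte and macrophage markers, 8 in all, summed to 11364 and 12674 in EE, 7723 and 7845 in E2 and 7752 and 6527 in placebo samples. Single markers of these 8 went both ways. In EE, 6 were called higher and 1, Ccr2 (-0.891), lower, and in E2, 1 was called higher and 1, Marco (-0.755), lower. For 7 B cell markers the sums were 20383 and 21023 in EE, 27355 and 22894 in E2 and 38872 and 42370 in placebo samples. The part of these cell populations in the decrease of the effector genes was not tested.

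A ratio of genes within 1 sample does not depend on the scale of the sample, apart from the pseudocount of 1. Each gene was therefore set against the mean log2 value of 5 T cell markers (Cd3d, Cd3e, Cd247, Cd2 and Cd5) and against that of the 4 NK cell markers. Relative to the T cell markers, Gzma was at -1.48 and -1.35 in EE, -1.57 and -2.29 in E2 and -0.573 and -0.785 in placebo samples on the log2 scale. Its mean ratio differed from placebo by -0.735 in EE and by -1.25 in E2, and neither estrogen group overlapped placebo. On the NK cell scale the ratio of Gzma differed from placebo by -1.35 in EE and by -1.55 in E2. For Eomes the differences from placebo were -0.364 in EE and -0.583 in E2 on the T cell scale, and -0.983 and -0.881 on the NK cell scale. Those of Prf1 were -0.369 and -0.36 on the T cell scale and -0.988 and -0.658 on the NK cell scale. The ratios of Runx3 differed from placebo by -0.15 and -0.338 on the T cell scale and by -0.769 and -0.635 on the NK cell scale. For these 3 genes all estrogen samples lay below all placebo samples on either scale. How many of all tested genes did so on these scales was not counted. On the deposited scale 70% of them lay below placebo without overlap in EE and 67.6% in E2. The T cell scale also averages markers that differed unequally from placebo. In E2, Cd3e fell more (-1.53) than Prf1 (-1.45) and Runx3 (-1.43), but less than Eomes (-1.68) and Gzma (-2.35). Single T cell markers were not used, so how far the T cell ratios depend on the choice of markers was not tested.

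The NK cell scale averages markers that differed unequally from placebo, by -1.72 in EE and -1.28 in E2 for Klrd1, -1.09 and -1.27 for Klrk1, -0.59 and -0.69 for Klrc1 and -0.15 and 0.05 for Cd244a. Each marker was therefore also used alone, a step added after seeing the data. Gzma was lower than in placebo without overlap against each of the 4, with differences from -2.1 to -0.518 in EE and from -2.4 to -1.07 in E2. Against Klrd1 alone, Prf1 was at -3.25 and -3.17 in EE, -3.11 and -3.36 in E2 and -3.26 and -2.86 in placebo samples, so both estrogen groups overlapped placebo. Against Klrd1 the ratios of Tbx21 and Runx3 also overlapped placebo in both groups, and that of Eomes did in EE (-0.147) but not in E2 (-0.396). Against Klrk1 alone, Prf1 (-0.182) and Tbx21 (-0.338) overlapped placebo in E2, and Gzmb overlapped it in both groups. The size of the NK cell ratios of every member, Gzma included, thus depended on which marker was used. Gzma was the only member without overlap with placebo against each of the 4 in both estrogen groups. How many other genes of the panel met the same rule was not counted, so it does not set Gzma apart from the panel.

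Relative to the T cell markers, Tbx21 was at -4.66 and -4.96 in EE and -4.85 and -4.57 in placebo samples, so these groups overlapped, while in E2 samples it was lower, at -5.49 and -4.96. On the NK cell scale Tbx21 differed from placebo by -0.72 in EE and by -0.813 in E2. Ifng lay on the T cell scale at -5.03 and -5.45 in EE, -5.39 and -5.51 in E2 and -5.93 and -6.26 in placebo samples, so its mean ratio exceeded that of placebo by 0.852 in EE and by 0.646 in E2. On the NK cell scale the differences of Ifng from placebo were 0.234 in EE, where the groups overlapped, and 0.349 in E2. Gzmb differed from placebo by 0.486 in EE and by -0.147 in E2 on the T cell scale, and by -0.133 in EE and -0.445 in E2 on the NK cell scale, so its sign in EE turned between them. These are differences of 2 against 2 samples, for which an exact two-sided permutation test cannot give less than 0.333, so that no p is given. Values of Gzmb and Ifng include background signal, which is a larger share of the low estrogen values.

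**Figure D4:**
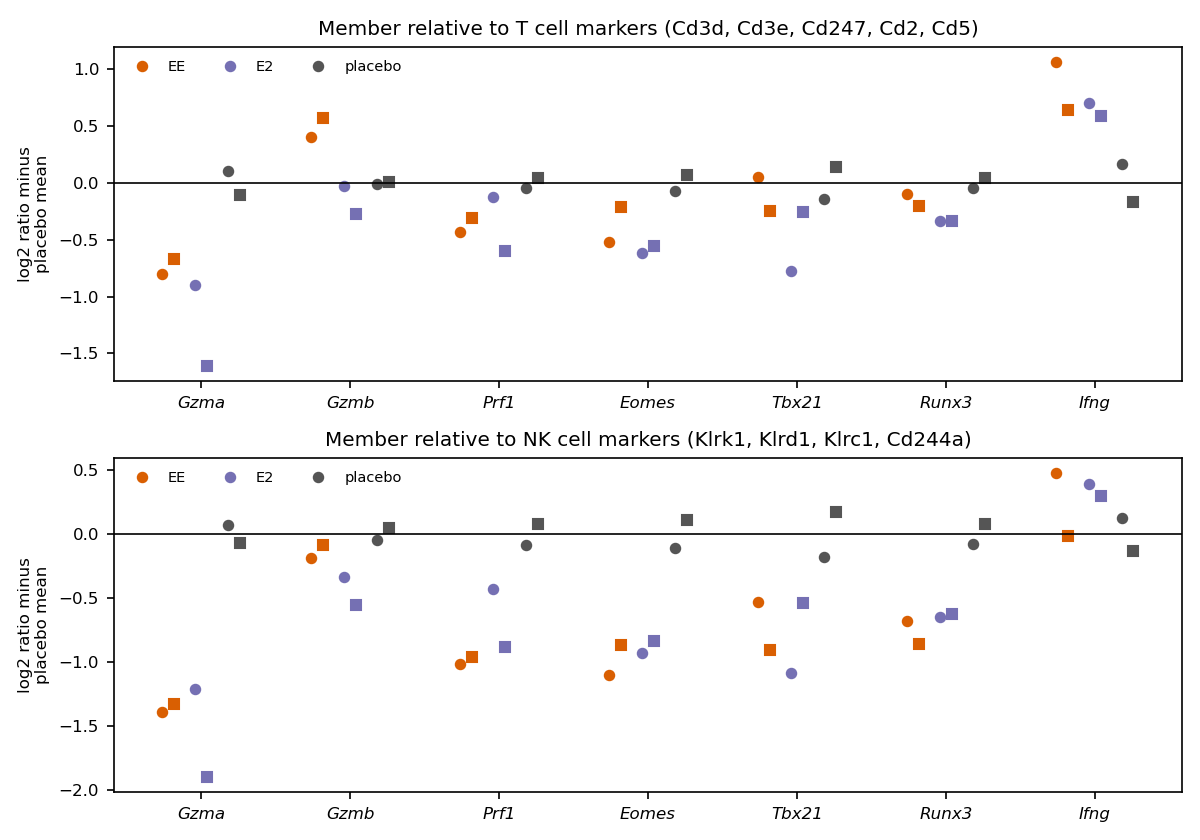
Log2 ratio of each gene to 5 T cell markers (upper panel) and to 4 NK cell markers (lower panel) within a sample, minus the placebo mean (vertical axis); symbols are samples. Gzma, Prf1, Eomes and Runx3 lie below 0 in all estrogen samples in both panels, and Ifng lies above 0 in all estrogen samples in the upper panel.

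EE and E2 differ by the ethynyl group, and this single pair of compounds was compared directly. Whether their doses were matched is unknown. The number of genes called between EE and E2 was 0 of 7 by limma, with 0 at an unadjusted p under 0.05, where 6.78% of all tested genes were called and 23% had such a p. Without E2 replicate 2, 0 genes of the panel were called, and without E2 replicate 1, 3 were higher and 3 lower. Only for Runx3, with 87 and 90 in EE and 114 and 94 in E2 samples, did the groups not overlap, with EE lower, as for 40.7% of all tested genes. The EE minus E2 difference was -0.22 for Runx3 (95% interval -0.60 to 0.15) and 0.11 for Gzma (-0.53 to 0.74). It was 0.22 for Gzmb (-0.24 to 0.69), -0.19 for Eomes (-0.64 to 0.26), 0.00 for Tbx21 (-0.42 to 0.43) and -0.21 for Ifng (-0.61 to 0.20). Prf1 had the largest, -0.42 (-0.97 to 0.13, adjusted p = 0.337 by limma). It was called lower in EE with scaling on positive controls only (-0.65, adjusted p = 0.0244 by limma). With that scaling 19.7% of all tested genes were called lower. The differences of the other 6 genes changed sign under at least 1 scaling, and every interval left room for a difference in either direction.

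The genes whose profile over the 6 samples lay nearest to each member were found by the root mean square difference of log2 values after centring each gene on its own mean. For Gzma these were Il7r, the interleukin-7 receptor gene of naive and memory T cells (0.259), the NK receptor gene Klra4 (0.369) and the T cell factor Tcf7 (0.397), and these distances were the largest among the 7 members. Prf1 was nearest to Tcf7 (0.124), Klrd1 (0.159), which encodes the CD94 chain of NK receptors, and Klra8 (0.17). Eomes was nearest to Cd3e (0.159), Tcf7 (0.162) and Klra8 (0.168). Runx3 had the closest neighbours, the inhibitory receptor gene Btla (0.041), Klra8 (0.058) and the lymphoid factor Ets1 (0.058). Tbx21 was nearest to Fkbp5 (0.108), Gata3 (0.185) and Il21r (0.192), and Gzmb to Klrk1 (0.085), which encodes the NKG2D receptor, Jak3 (0.109) and Slamf1 (0.112). Ifng was nearest to the follicular chemokine receptor gene Cxcr5 (0.087), Socs3 (0.09) and Irf4 (0.091). Among the members, Eomes and Runx3 were the closest pair (0.164), and Gzma and Ifng the farthest apart (0.865). These distances describe 6 samples in 3 groups.

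Other genes of the cytotoxic programme were described by lists. Of 23 genes for NK and cytotoxic receptors and products on the panel, 17 passed the filter, and 16 of them were called lower in EE and 16 in E2 against placebo. Among all tested genes 63.9% and 59.5% were called lower. Their medians were -1.08 in EE and -0.967 in E2, between those of the effector genes and of the panel. The receptor gene Klra4 had 19 and 27 in EE, 19 and 22 in E2 and 91 and 94 in placebo samples, a log2 difference of -1.98 ± 0.18 in EE and -2.12 ± 0.18 in E2. Placebo samples lay far above all others. Klra8 fell by 1.63 ± 0.17 in EE and by 1.45 ± 0.17 in E2, and Klra7 by 1.58 ± 0.21 in E2. Klra genes are near-identical copies whose probes may count each other's transcripts, so single values are uncertain. Klrd1 fell by 1.72 ± 0.19 in EE, Klrk1 by 1.27 ± 0.17 in E2 and the inflammatory chemokine gene Ccl3 by 1.57 ± 0.17 in EE. With the trimmed mean, 9 of 17 were called lower in EE, as were 26.9% of all tested genes, and 8 in E2, as were 21.2%. With that scaling 1 of the 17 was called higher in E2, as were 26.9% of all tested genes, against 12.5% on the deposited scale.

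Of 19 tested genes for the cytokines, receptors and signal transducers that act upstream of T-bet and Eomes, 15 were called lower and 1 higher in EE, and 16 lower in E2. The shares of all tested genes called lower were 63.9% and 59.5%. Stat4, which carries the interleukin-12 signal, had 349 and 361 in EE, 402 and 350 in E2 and 880 and 938 in placebo samples. Its log2 difference was -1.35 ± 0.14 in EE and -1.27 ± 0.14 in E2. The interleukin-21 receptor gene Il21r fell by 1.27 ± 0.14 in EE and by 1.49 ± 0.14 in E2, and the interleukin-27 receptor gene Il27ra by 1.42 ± 0.17 in EE and by 1.2 ± 0.17 in E2. The interleukin-18 receptor gene Il18r1 fell by 1.56 ± 0.21 in EE, and the kinase gene Jak3 by 1.23 ± 0.17 in E2. The gene called higher was Il18, which encodes the cytokine interleukin-18, with 510 and 563 in EE and 428 and 405 in placebo samples (0.36 ± 0.14), where 15.5% of all tested genes were called higher. It was named after its values were seen, and its list held 0 genes called higher with scaling on reference genes or on positive controls. Medians of this list were -1.01 in EE and -0.783 in E2, and became -0.347 and -0.237 with the trimmed mean, where 9 genes were called lower and 2 higher in EE, and 8 lower and 1 higher in E2. With that scaling 26.9% of all tested genes were called lower and 28.7% higher in EE, and 21.2% lower and 26.9% higher in E2.

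Of 17 other lymphocyte transcription factors, 14 were called lower in EE and 15 in E2, against 63.9% and 59.5% of all tested genes, with medians of -0.938 and -0.825. Tcf7, a factor of naive and memory T cells, had 686 and 699 in EE, 1020 and 756 in E2 and 2272 and 2728 in placebo samples, a log2 difference of -1.85 ± 0.18 in EE and -1.50 ± 0.18 in E2. The related Lef1 fell by 1.67 ± 0.17 in EE and by 1.24 ± 0.17 in E2. Gata3, the factor of type 2 helper T cells, fell by 1.58 ± 0.16 and 1.35 ± 0.16, Bcl6, the factor of follicular helper T cells, by 1.24 ± 0.14 in E2, and Runx1 by 0.97 ± 0.14 in EE. With the trimmed mean 6 of 17 were called lower in EE, with 2 higher, and 6 in E2, where 26.9% and 21.2% of all tested genes were called lower with that scaling.

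Of 18 genes of the interferon gamma receptor and its response, 17 were called lower and 1 higher in EE, and 16 lower in E2, where 63.9% and 59.5% of all tested genes were called lower. Ciita, which switches on class II antigen presentation genes, fell by 1.36 ± 0.16 in EE and by 1.16 ± 0.16 in E2, and the factor gene Irf1 by 1.08 ± 0.15 and 0.88 ± 0.15. The receptor-bound kinase gene Jak1 fell by 1.03 ± 0.15 in EE and by 0.92 ± 0.15 in E2. The peptide transporter gene Tap1 fell by 1.04 ± 0.15 in EE, and the chemokine gene Cxcl9 by 1.04 ± 0.15 in E2. The gene called higher in EE was the chemokine gene Cxcl10, with 53 and 56 in EE and 32 and 42 in placebo samples (0.56 ± 0.16), also named after its values were seen, and 0 genes of its list were called higher with positive controls. The medians, -0.842 in EE and -0.726 in E2, became -0.182 and -0.18 with the trimmed mean, where 5 genes were called lower and 1 higher in each contrast. For 18 genes this is near the 26.9% and 21.2% of all tested genes called lower with that scaling. Between EE and E2, 0 genes of these 4 lists were called by limma on the deposited scale, with 3 of 17, 5 of 19, 2 of 17 and 1 of 18 at an unadjusted p under 0.05. Among all tested genes 6.78% were called and 23% had such a p. The lowest p of each list belonged to the chemokine receptor gene Cx3cr1 (-0.72 ± 0.26), the cytokine gene Il21 (0.83 ± 0.24), the factor gene Maf (0.51 ± 0.16) and Cxcl10 (0.51 ± 0.16), as log2 differences of EE minus E2. Other scalings made calls. On column totals 4 upstream genes, 2 factors and 2 interferon gamma response genes were higher in EE, as were 11.6% of all tested genes. With positive controls 3 receptor genes, 3 upstream genes and 2 factors were lower and 1 upstream gene was higher. With that scaling 19.7% of all tested genes were called lower and 1.75% higher. With the median of ratios, and with the trimmed mean without S100a8, S100a9 and Camp, 1 upstream gene was higher. Among all tested genes 2.63% and 2.41% were called higher with these 2 scalings.

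**Figure D5:**
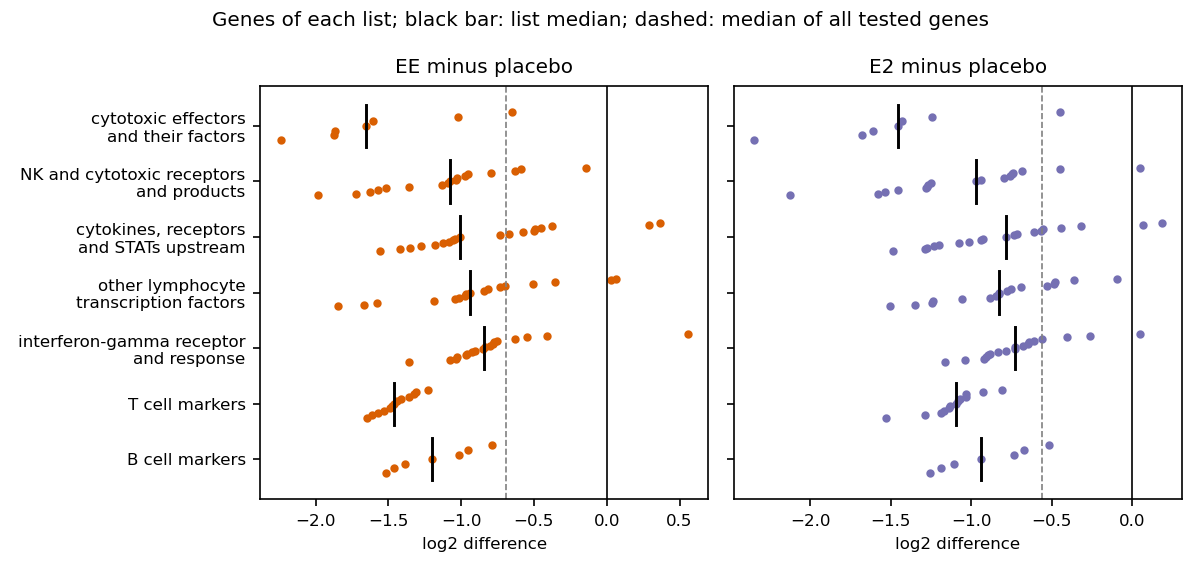
Log2 difference (horizontal axis) of every tested gene of the effector group, 4 lists of related genes, and T and B cell markers, for EE minus placebo and E2 minus placebo; points are genes, black bars list medians and the dashed line is the median of all tested genes. The medians lie left of the dashed line in each list shown, and that of the effector group is the lowest, followed by T cell markers.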

How the data were processed

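The members, lists and alternatives were chosen with earlier results of these data known. Total RNA of splenocytes was profiled with the nCounter mouse immunology panel, per the labels' protocols. The deposited values were treated as scores, since they appear to be barcode counts that were scaled per sample and rounded to whole numbers before deposit. The steps are not given in the sources used here. This was read from the values. In placebo replicate 26, 97.9% of the values from 2 to 150 lay on the grid of whole counts times 1.238. That grid holds 80.8% of whole numbers. The geometric mean of the reference genes was also nearly level between samples. In the other 5 samples the best grid held 98.4% to 100% of whole numbers and so does not show scaling by its gaps. The tests planned for raw counts were therefore not run, and limma on log2(value + 1) took their place.

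The table held 575 rows, 561 genes and 14 spiked-in controls (6 positive and 8 negative, divided at a mean of 20), which stayed out of totals and tests. Rows were named through unversioned RefSeq transcripts of assembly GRCm38.p6, which named 549 genes and left 12 unnamed. All value columns had a sample, so 0 were set aside. Genes with a mean of at least 20 over the 6 samples were tested, 457 in all. limma 3.58.1 in R 4.3.3 was fitted to group means over all 6 samples, with 3 residual and 5.93 prior degrees of freedom. Two-sided p-values were adjusted over the 457 genes (Benjamini-Hochberg), and genes under 0.05 were called, whatever the size of the difference. Fold changes are on the log2(value + 1) scale, which understates those of low genes. Differences are EE minus placebo, E2 minus placebo and EE minus E2. All members were named, with up to 4 genes of lowest p per pathway list and contrast and the 3 nearest genes per member, found on the deposited scale; marker lists are given as sums. Alternatives were 6 other scalings, 2 filters, subtraction of the negative-control mean, only the groups compared, each sample left out, single NK cell markers, a pseudocount of 10 and a spread that follows the mean level. The trimmed mean was computed without weights. Code was tested on simulated data. Scaled values carry no exact counting error, so no counting intervals are given.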

Additional observations from a re-analysis of the deposited data

How the results depend on the processing

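Gzma, Prf1, Eomes, Tbx21 and Runx3 were called lower in both placebo contrasts under every alternative in which they were tested. Ifng was tested under 17 alternatives and called lower under 11 in EE and 6 in E2. Gzmb, also tested under 17, was called lower under 14 in EE and 17 in E2. With a mean of at least 50, 4 members were called lower in EE and 4 in E2, since Gzmb, Tbx21 and Ifng fell under that filter. The sign of Ifng turned in EE with the median of ratios (0.01), and in E2 with the median of ratios (0.098), the trimmed mean (0.079) and the trimmed mean without S100a8, S100a9 and Camp (0.062); the cause was not tested. Members called lower numbered 6 to 7 without 1 sample in EE and 6 to 7 in E2. In EE against E2 they numbered 0 to 0 without 1 sample and 1 with positive controls.

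Over all genes, those called higher in EE against placebo (71 as deposited) numbered 133 with the median of ratios, 131 and 132 with the 2 trimmed means, 41 with positive controls and 52 to 74 without 1 sample. Those called lower (292) numbered 99, 123 and 124 with the first 3 of these and 253 to 289 without 1 sample. In E2 against placebo 57 were higher and 272 lower. These became 126 and 87 with the median of ratios, 123 and 97 with the trimmed mean and 120 and 101 without the 3 transcripts, and 41 to 66 and 214 to 264 without 1 sample. Higher genes made up 57.3% of calls in EE and 59.2% in E2 with the median of ratios, and 31.2% and 21.1% on column totals.

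In EE against E2, genes called higher (10) numbered 53 on column totals, 0 without a filter, 19 with only the groups compared, 16 with a pseudocount of 10 and 24 with a trend, and 0 to 19 without 1 sample. Genes called lower (21) numbered 8 on column totals, 1 with the median of ratios, 90 with positive controls, 1 and 1 with the trimmed means, 0 without a filter, 11 after background subtraction and 50 with a trend, and 0 to 30 without 1 sample. The pseudocount and the trend were chosen after seeing the data. Leaving out a sample leaves a group with 1 sample, which is assumed to vary like the others. Count-based tests planned for raw counts were not run because the values appear to be scaled. No paired analysis was possible because the groups share no replicate numbers. Values close to the background limit Gzmb and Ifng.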

Other observations

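The E2 samples differed from each other more in the granule genes than in the transcription factors. Gzma was higher in E2 replicate 1 than in E2 replicate 2 by 0.996 on the log2 scale, which ranked 2 among the absolute replicate differences of the 457 tested genes in that group, whose median was 0.193. Prf1 (0.757) ranked 10 and Gzmb (0.524) ranked 28, while Ifng (0.399) ranked 59, Runx3 (0.276) ranked 123 and Eomes (0.215) ranked 195. Tbx21 ranked 160 and ran the other way (-0.245). The other groups did not share this order. In the EE group the difference was larger for Eomes (-0.462) than for Gzmb (-0.322), Gzma (-0.288) and Prf1 (-0.282), and in placebo it was larger for Tbx21 (-0.48) and Eomes (-0.35) than for Prf1 (-0.298), Gzmb (-0.222) and Gzma (0.007). Each value compares 1 pair of samples and has no test.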
